A study of Mus musculus with 2 samples.

Results

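The cytosolic ribosomal protein genes were taken as every gene whose symbol started with Rpl or Rps and a digit, or was Rplp0, Rplp1, Rplp2 or Rpsa, without the -ps pseudogene symbols and the Rps6k kinases. The rule found 86 of the 31053 genes in the expression matrix. They comprised 31 proteins of the small (40S) subunit, 43 of the large (60S) subunit, 3 proteins of the 60S stalk and 8 paralogs or retrogene copies, plus Rps19bp1, whose product binds Rps19 but is not itself a ribosomal protein. UMIs (unique molecular identifiers, each standing for 1 captured mRNA molecule) were found for 85 of the 86. Only Rpl39l had 0 UMIs, which allowed at most 1.21 CPM (UMIs of a gene per 1000000 UMIs) over the whole matrix. In the study, newborn wild-type mouse retinas were electroporated with pCIG2 plasmids, which carry an IRES2-EGFP reporter, either the control plasmid or 1 encoding lamin A (Lmna) or the lamin B receptor (Lbr), and viable EGFP+ cells were flow-sorted from the retinas weeks later, in adults. The sorted cells of each replicate were labelled with 1 of 3 lipid-anchored oligonucleotide tags, pooled and captured in a single 10x Genomics run. Because the labels did not tie a tag to a plasmid, the tags are reported as tag 1, tag 2 and tag 3. All 3 groups shared the vector and the sort. The strain of these retinas, the vector's promoter and the number of animals per tag were not given in the sources used here.

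A ribosome is built from a 40S subunit, which reads the mRNA, and a 60S subunit, which joins amino acids, and each holds a fixed set of proteins on a scaffold of ribosomal RNA. Each protein is used once per ribosome, apart from the stalk proteins Rplp1 and Rplp2, which are present in several copies and recruit the elongation factors. In vertebrates these mRNAs begin with a 5′ terminal oligopyrimidine tract, a C followed by further C or T bases, through which mTOR signalling controls their translation together, and the adult rod is a cell with heavy and continuous protein synthesis for its outer segment.

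The matrix held 834 barcodes with 500 to 85822 UMIs each (median 2395) and 2487110 UMIs in all. Clustering without the ribosomal protein genes gave, after removal of barcodes that the deposited tag call named doublets, 651 rod-like, 87 Müller glia-like, 44 bipolar-like, 18 microglia-like and 12 cone-like barcodes. The labels name rods as the cell type. In the rods all 15 rod markers were detected in at least 25% of barcodes, in the bipolar cells 12 of 16 bipolar markers and in the microglia 15 of 15 microglial markers, against only 5 of 15 Müller markers in the Müller glia. Rod markers made up 12.3% of the UMIs of rods, 1.31% of Müller glia, 0.0806% of bipolar cells and 0.484% of microglia, and microglial markers were at 0 in Müller glia. Müller markers made up 1.08% of the UMIs of Müller glia, less than the rod markers there, and 2.27% of those of microglia. In Müller glia 6 of 15 rod markers were detected in at least 25% of barcodes, beside the 5 Müller markers. The name rests on 4 Müller markers (Rlbp1, Glul, Dbi and Apoe) among the genes most raised in that cluster. No retinal cell type lacks ribosomal protein mRNAs, so these marker shares are only a rough gauge here of free RNA or other cells in a class. The Müller share of microglia cannot be read in this way. Only 2 of the 15 Müller markers were detected in at least 25% of microglia, and single microglia ran from 0% to 18.3%. Whether those UMIs were the microglia's own was not tested. The Müller glia stood apart: 54.8% of their UMIs came from the 13 mitochondrial genes, against 15.4% in rods, 22.9% in bipolar cells and 6.41% in microglia, and 76 of the 87 had no row in the tag table. Shares are therefore given of all UMIs and of the UMIs outside the mitochondrial genes. All groups came from 1 library, so no test between them was possible. The intervals (exact, 95%) cover counting error only and are too narrow, since UMIs were grouped in barcodes whose shares differed widely. Of the 28332 values above 0 of a ribosomal protein gene in a rod, 81.6% were 2 or more. That percent also depends on depth and does not by itself measure the grouping.

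In rods, 162848 of 1841305 UMIs fell on ribosomal protein genes, or 8.84% (interval 8.80 to 8.89), and 10.5% of the UMIs outside the mitochondrial genes. The rods ranged from 0.222% to 27.7% with a median of 9.11%. Levels are in CPM, taken after adding up the UMIs of all barcodes in a group. Since a UMI marks the 3′ end of a molecule and not its length, no scaling by length was made. The median member reached 1075 CPM in rods, with quartiles of 400 and 1502 CPM; 47 members lay above 1000 CPM and 12 below 100 CPM. The medians of the 40S and 60S members were 1183 and 1118 CPM. Counts of 40S and 60S mRNAs went together from rod to rod (Pearson r = 0.967, Spearman rho = 0.893 over 651 barcodes, a description that includes the shared depth of each barcode).

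The 10 members with most UMIs held 26.4% of the ribosomal protein UMIs of rods, and 23 members made up 50% of them. Among them, Rps29, a small zinc-binding 40S protein, had 2811 CPM and was the most widely detected member, in 89.4% of rods. Rps24 had 2557 CPM and Rps23, which lies beside the decoding centre, 2327 CPM. Rpl41, one of the shortest proteins known, had 2258 CPM. The stalk protein Rplp1 and the 60S protein Rpl30 had the same count, 3995 UMIs or 2170 CPM. Rps21 reached 2093 CPM and Rpl8, which lines the site of peptide bond formation, 2061 CPM. Rps27a, made as a fusion to ubiquitin, had 1958 CPM. The levels of these genes thus went down in small steps, with none far above the next.

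Among the stalk genes, Rplp1 was followed by Rplp2 at 644 CPM and by Rplp0, the stalk base that holds them, at 543 CPM. Rplp1 thus lay well above Rplp2 by UMIs, although their proteins act as a pair. Stretches of both 3′ ends also occur in other genes of the matrix (61.4% for Rplp1 and 38.0% for Rplp2, measured as described further on). The size of the gap is therefore uncertain. Rpsa, the 40S protein also known as the laminin receptor, had 1541 CPM. On the X chromosome are 4 members (Rpl10, Rpl36a, Rpl39 and Rps4x), and their levels in rods ran from 37.5 CPM for Rpl10 to 1497 CPM for Rpl39.

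The start tract described for these mRNAs was looked for in the genome. Of the 86 members, 66 had an entry in a table of RefSeq promoters (build GRCm38.p6, 250 bases before to 50 after the annotated start). The tract was searched on the sense strand as a C followed by at least 4 further C or T bases, beginning within 5 bases of the annotated start, also inside a longer run of C and T, with no other motif sought. A gene counted as having the tract when any of its listed promoters did. The tract was present for 30 of the 66 (45.5%), against 21.1% of the 26959 other genes and 17 of 69 (24.6%) mitochondrial ribosomal protein genes, whose products work in another ribosome. Taken by promoter, 32 of the 78 promoters of members (41.0%) and 18.3% of the 32773 other promoters held it. The windows that follow run from 10 bases before the annotated start, 30 bases in all on the coding strand. Where a gene had several promoters, the first with a match was printed. Among the printed genes Rps24 and Rps21 had 2 promoters each and Rpl35a had 3. The Rps24 window lies downstream of the first annotated base of the gene, at chr14:24487125. Capitals mark the match that begins nearest to the annotated start, and the run of C and T can reach further upstream in small letters. The members printed were picked and do not mirror the share with a match. Of the members with extreme levels in other classes described further on, Rpl35, Rpl13a and Rps27 also had a match. Rps15, Rpl4, Rpl10a, Rps19bp1, Rplp0, Rps19 and Rps7 had no match. The windows show abundant rod members (Rps24, Rps23, Rps21), some of the extreme members, all with a match (Rpl27a, Rpl35a, Rps9), and Rpl41 and Rpl37, in which these letters were not found in the window.
Rps24: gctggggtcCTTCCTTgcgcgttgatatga
Rps23: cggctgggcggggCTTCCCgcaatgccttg
Rps21: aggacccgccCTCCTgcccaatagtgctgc
Rpl27a: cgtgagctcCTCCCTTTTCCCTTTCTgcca
Rpl35a: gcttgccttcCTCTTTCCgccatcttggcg
Rps9: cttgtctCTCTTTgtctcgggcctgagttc
Rpl41: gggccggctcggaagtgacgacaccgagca
Rpl37: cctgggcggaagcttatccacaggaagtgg
The windows lie at chr14:24490668-24490697 (plus strand) for Rps24, chr13:90923112-90923141 (plus) for Rps23, chr2:180257369-180257398 (plus) for Rps21, chr7:109519185-109519214 (plus) for Rpl27a, chr16:33056472-33056501 (plus) for Rpl35a, chr7:3704031-3704060 (plus) for Rps9, chr10:128549149-128549178 (minus) for Rpl41 and chr15:5116603-5116632 (plus) for Rpl37. Members with and without a match had similar medians in rods, 900 and 946 CPM.

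Ribosomal protein genes have many processed copies in the genome, and a read that fits several genes is not counted by Cell Ranger. As a gauge, each run of 60 bases in the last 300 bases of a member's coding transcripts was looked up in the GENCODE M21 transcripts of all other genes. For 74 of 86 members at least 1 run was found in another gene, and for 63 none was found in another gene of the matrix. In 13 members 50% or more of the runs were shared with a gene of the matrix, and 10 of these 13 had under 1000 UMIs, compared with 8 of the 63 without a shared run. The median was 404 UMIs in the first group and 3012 in the second. Rpl10 (114 UMIs, 88.1% of runs shared) stood beside 461 UMIs of Rpl10-ps3, which the rule leaves out. Rps12 (192 UMIs, 85.8% shared) stood beside 973 UMIs of Rps12-ps3, and Rpl27 (119 UMIs, 59.1% shared) beside 649 of Rpl27-ps3. Rps18 (159 UMIs, 61.8% shared) stood beside 917 UMIs of Gm11361. For Rps27 itself 236 UMIs were counted, against 1469 for its retrogene Rps27rt, with which it shared 56.3% of its runs. The levels of these members are therefore uncertain, and low counts of theirs do not show low expression. Sharing was not always accompanied by a low count: Rplp1 and Rpl41, with 61.4% and 55.9% shared, were among the highest members. In all, the 9 -ps genes left out by the rule held 4451 UMIs, against 216056 in the members.

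**Figure D1:**
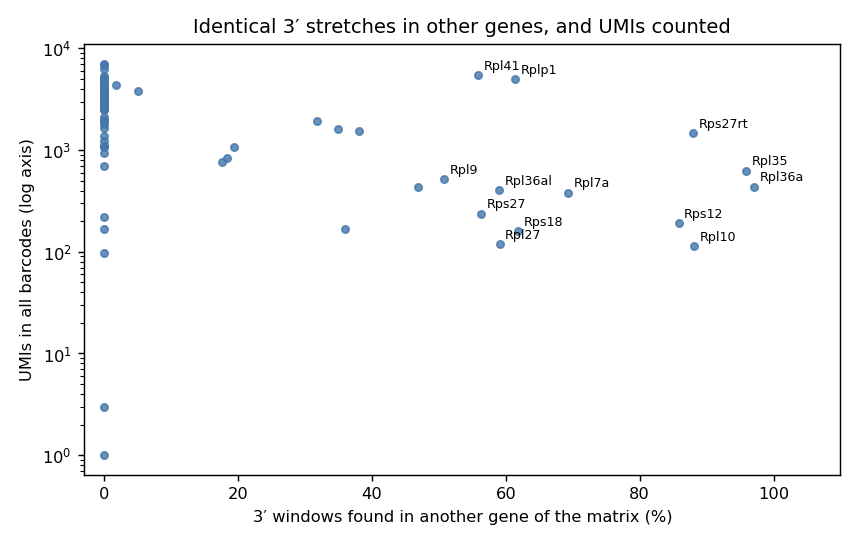
Each point is 1 of the 85 ribosomal protein genes with a UMI, with the percent of its 3′ runs of 60 bases that also occur in another gene of the matrix on the horizontal axis and its UMIs in all 834 barcodes on a log vertical axis. Of the 13 named genes at 50% or more, all but Rplp1, Rpl41 and Rps27rt lie under 1000 UMIs.

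Most paralogs were lower in rods than the protein they resemble. The exceptions were Rps27l (170 UMIs) and Rps27rt beside Rps27 (165 UMIs in rods). Rps27 shared 3′ runs with Rps27rt, whereas Rps27l shared none with a gene of the matrix. Rpl22l1 made up 33.8% of the Rpl22 and Rpl22l1 UMIs of rods, 48.4% of those of Müller glia, 35.0% of bipolar cells and 18.8% of microglia, where it had 316 CPM against 1364 CPM for Rpl22. Rpl36al made up 44.8% of its pair with Rpl36a in rods, 43.5% in Müller glia, 66.7% in bipolar cells and 67.4% in microglia, where 16 of its 31 UMIs came from 1 barcode. Both counts are uncertain, since 97.1% of the 3′ runs of Rpl36a and 59.0% of those of Rpl36al were shared with another gene of the matrix. Rps27l, a paralog induced by p53, had 92.3 CPM in rods and 330 CPM in microglia, the latter from 23 UMIs of which 1 barcode held 12. Rpl7l1 had 43.5 CPM in rods beside 1504 CPM for Rpl7. Rpl3 had 1118 CPM in rods, while its muscle paralog Rpl3l had 3 UMIs and the testis paralog Rpl10l 1 UMI in the whole matrix. Rpl39 had 1497 CPM in rods, against 0 UMIs of Rpl39l.

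The classes differed in the share of UMIs on ribosomal protein genes. Of all UMIs the share was 8.84% in rods, 9.89% in Müller glia (interval 9.73 to 10.0), 6.22% in bipolar cells (6.14 to 6.31), 13.75% in microglia (13.5 to 14.0) and 7.05% in cones (6.80 to 7.31). Outside the mitochondrial genes the order changed: Müller glia were highest at 21.9%, then microglia at 14.7%, rods at 10.5%, cones at 8.82% and bipolar cells at 8.07%. The ranges over barcodes overlapped in every pair of classes. Microglia ran from 2.63% to 29.7% with a median of 16.4%, and 14 of 18 lay above the median rod. Bipolar cells ran from 2.10% to 15.7% with a median of 6.13%, and only 3 of 44 lay above the median rod. Müller glia ran from 0% to 45.6% of all UMIs with a median of 10.4%; 56 of 87 lay above the median rod by all UMIs and 77 of 87 outside the mitochondrial genes. The depth differed too, with medians of 2411 UMIs in rods, 1125 in Müller glia, 7796 in bipolar cells and 3231 in microglia. With every barcode thinned to 500 UMIs, the median barcode showed 26 members in rods, 23 in Müller glia, 21.5 in bipolar cells and 34 in microglia; without thinning these were 46, 30, 64 and 54.5. No barcode was shallower than 500 UMIs.

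**Figure D2:**
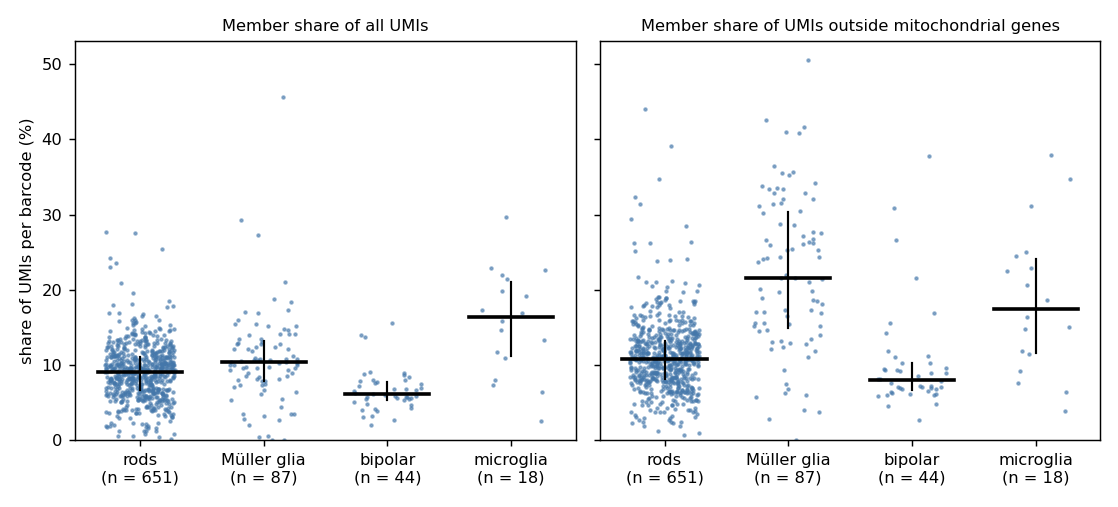
Share of UMIs on ribosomal protein genes per barcode (percent), of all UMIs on the left and of UMIs outside the mitochondrial genes on the right; points are barcodes, thick lines medians and thin lines quartiles. Microglia (n = 18) lie high in both panels, bipolar cells (n = 44) low, and Müller glia (n = 87) move from a median of 10.4% to 21.6%.

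For single genes, the log2 ratio of CPM was taken with 0.5 UMIs added to both sums, and 2-fold was the line between classes. Compared were genes with at least 20 expected UMIs in each group, the expectation coming from the share pooled over both groups. The count in a group could thus be lower. Rods held 1841305 UMIs against 143713 in Müller glia, 329853 in bipolar cells and 69628 in microglia. Genes therefore entered mainly through their level in rods. This favours genes lower in the other class, and the percents and medians over all genes carry that. In Müller glia against rods the share of all UMIs was 1.12-fold (log2 ratio 0.16, interval 0.14 to 0.19), and outside the mitochondrial genes 2.09-fold (1.06, 1.04 to 1.09). Of 74 members, 44 were higher and 30 lower by all UMIs, and 71 were higher outside the mitochondrial genes. Only 1 of 74 was higher by 2-fold or more, where 3.68% of the 951 genes were, and 1 was lower, where 55.9% were. Outside the mitochondrial genes 41 of the 74 (55.4%) were higher by 2-fold, where 14.1% of genes were, and 0 were lower, where 33.6% were. Counted once per gene and barcode, 14 of 48 (29.2%) were higher, where 23.8% of 130 genes were. The median over members was 0.15 and over all 951 genes -1.19. Rpl37, a zinc-binding 60S protein, was the top member of Müller glia with 571 UMIs or 3973 CPM, against 1427 CPM in rods (log2 ratio 1.48, 1.34 to 1.61). It was detected in 67.8% of Müller glia and 66.0% of rods. Next came Rpl27a at 2811 against 1478 CPM (0.93) and Rpl35, at the exit of the peptide tunnel, at 445 against 236 CPM (0.92), with 95.9% of its 3′ runs shared. The lowest were Rps15, near the decoding site, at 765 against 1554 CPM (-1.02), Rps23 at 1176 against 2327 CPM (-0.98) and Rpl4, which lines the tunnel, at 153 against 295 CPM (-0.91). Outside the mitochondrial genes these 3 came to -0.11, -0.078 and -0.012. The stalk gene Rplp0 stood at 710 CPM, Rplp1 at 2595 CPM and Rplp2 at 459 CPM, and Rpsa at 1802 CPM. Most Müller glia had a high mitochondrial share: in the 77 that failed the study's filter the share outside the mitochondrial genes was 23.9%, and in the 10 that passed it was 8.44% (7.87 to 9.05), with rod markers at 4.50% of their UMIs against 1.09% in the 77. Among passing barcodes only, the log2 ratio against rods was -0.32, and without the top barcode of each gene in each group it was 0.063. The part that RNA quality or rod RNA had in this was not tested.

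In bipolar cells the share was 0.704-fold that of rods (log2 ratio -0.51, -0.53 to -0.49), and 0.772-fold outside the mitochondrial genes (-0.37). Of 80 members, 67 were lower and 13 higher. None was higher by 2-fold or more, where 12.7% of the 2242 genes were, and 11 (13.8%) were lower, where 28.1% were. The 11 were 6 of 31 members of 40S, 2 of 41 of 60S, 1 of 3 of the stalk, 1 of 4 paralogs and Rps19bp1. The median member stood at -0.51 and the median gene at -0.30. Rps19bp1 had the lowest ratio but only 6 UMIs in bipolar cells (18.2 against 83.6 CPM, -2.09, interval -3.67 to -1.05). Rpl10a, the protein of the mobile L1 stalk, followed at 446 CPM in bipolar cells against 1741 CPM in rods (-1.96, -2.21 to -1.73), and Rps23 at 758 against 2327 CPM (-1.62). Rplp1 was also low, 755 against 2170 CPM (-1.52), and so was Rpsa, 670 against 1541 CPM (-1.20). Summed over their members, the log2 ratio was -1.18 for the stalk, -0.58 for 40S and -0.40 for 60S. At the other end were Rpl35a at 1489 against 1182 CPM (0.33, 0.19 to 0.47), Rpl13a (0.18, -0.25 to 0.56) and Rps27 (0.18, -0.43 to 0.70), of which the last 2 had intervals that included 0. The top members of bipolar cells were Rps24 (2004 CPM), Rps29 (1737 CPM) and Rps21 (1655 CPM). Tag 2 held 31 of the 44 bipolar barcodes, and within tag 2 the log2 ratio against rods was -0.42. Counted once per gene and barcode the log2 ratio of shares was -0.90, and 22 of 75 members (29.3%) were lower by 2-fold, where 37.9% of 536 genes were.

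In microglia the share was 1.55-fold that of rods (log2 ratio 0.64, 0.61 to 0.67) and 1.40-fold outside the mitochondrial genes (0.49). Of 68 members 57 were higher. In 14 (20.6%) the ratio was 2-fold or more, where 8.02% of the 449 genes reached it, and 0 were lower by 2-fold, where 57.9% of genes were. These percents of genes carry the entry through rods described above. Rpl4 was compared with 10 UMIs in microglia, while Rps27l, with 23, was not. The 14 were 6 of 28 members of 40S, 7 of 35 of 60S and 1 of 3 of the stalk. The median member stood at 0.59 and the median gene at -1.43. Rps9, at the mRNA entry, had 196 UMIs or 2815 CPM against 922 CPM in rods (1.61, 1.39 to 1.82). Rplp0 had 1594 against 543 CPM (1.56), and Rps19, the gene most often mutated in Diamond-Blackfan anaemia, 2915 against 1065 CPM (1.46). Rps29 was the top member at 7210 CPM against 2811 CPM (1.36), with a UMI in all 18 microglia. Among the lowest were Rpl4 with 10 UMIs (144 against 295 CPM, -0.97) and Rps7 (546 against 827 CPM, -0.58). Counted once per gene and barcode the ratio of shares was -0.057, and within tags 1, 2 and 3, with 5, 4 and 3 microglia, it was 0.59, 0.98 and 0.0285.

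**Figure D3:**
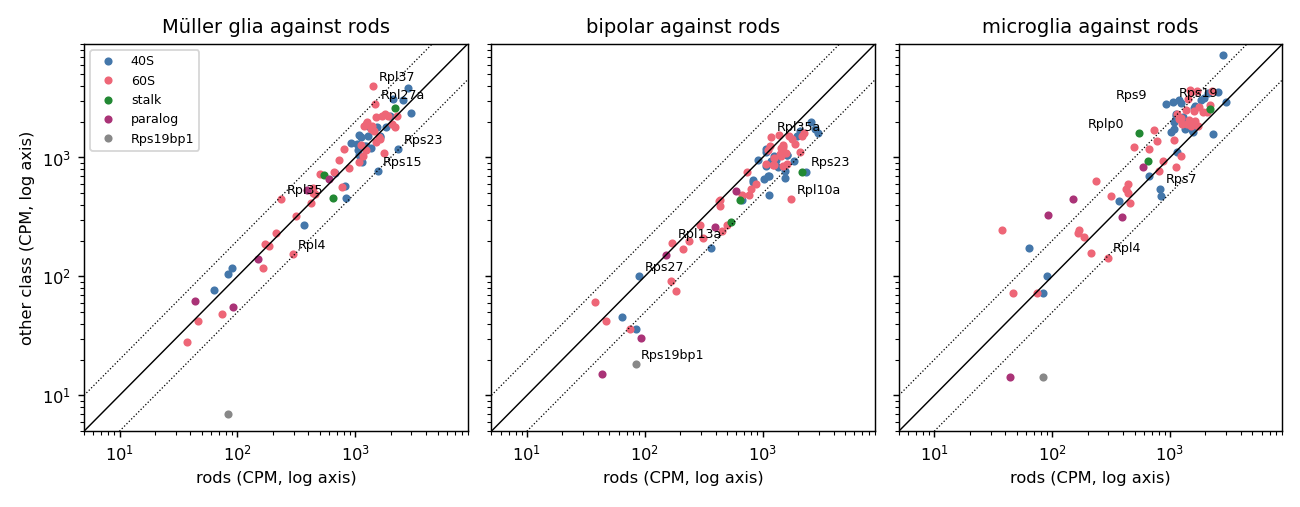
Level of each ribosomal protein gene in rods (horizontal, CPM, log axis) against Müller glia, bipolar cells and microglia (vertical, log axis); colours give the subunit, the solid line equality and the dotted lines 2-fold, and members under 1 in rods or at 0 in the other class are not drawn. Most points run parallel to the line of equality, below it in bipolar cells and above it in microglia, with Rpl37 (3973 in Müller glia) and Rpl10a (446 in bipolar cells) apart.

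The order of the members was similar in rods and in the 3 classes set against them (Spearman rho of CPM with rods over 86 members, 0.918 in Müller glia, 0.887 in bipolar cells and 0.883 in microglia, as a description). The spread of the log2 ratios was set beside that of other genes. Between Müller glia and rods the interquartile range was 0.50 over members and 1.94 over the 877 other genes. It was 0.56 against 1.66 in bipolar cells and 0.62 against 3.42 in microglia. The members and the other genes were not matched for level, on which the precision of a ratio depends, and the 3 comparisons share the rods. The ratio of 40S to 60S UMIs was 0.947 in rods, 0.981 in microglia, 0.838 in bipolar cells and 0.835 in Müller glia.

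**Figure D4:**
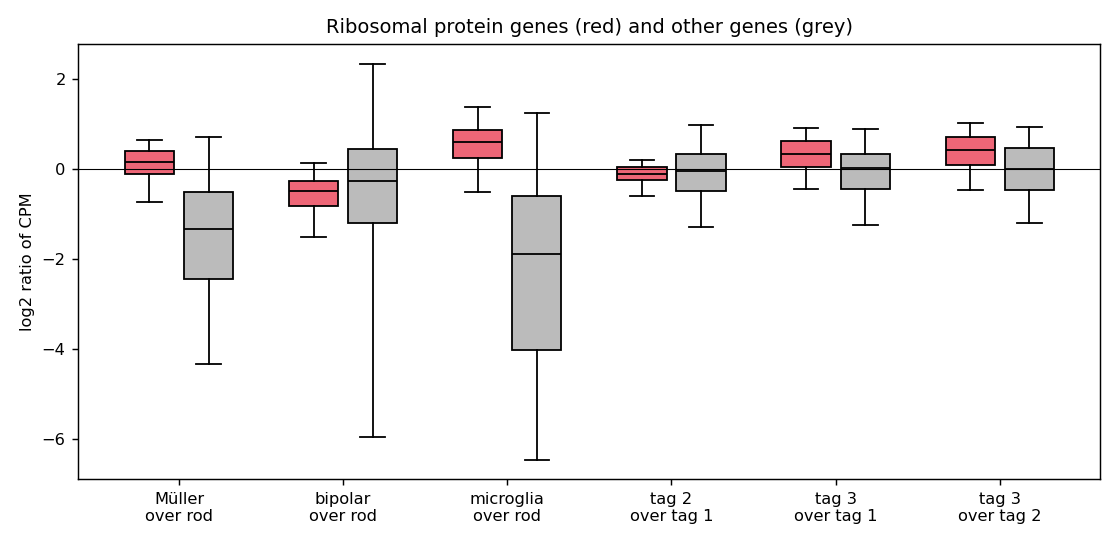
Log2 ratios of CPM for ribosomal protein genes (red) and all other genes with enough UMIs (grey) in the 3 class and 3 tag comparisons; boxes give median and quartiles and whiskers the 5th and 95th percentiles. The red boxes are the shorter in each pair, with an interquartile range of 0.50 against 1.94 in Müller glia and 0.29 against 0.81 for tag 2 over tag 1.

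Other genes of translation were read beside the members. Fau (a ubiquitin-like fusion to a 40S protein) and Rack1 (a scaffold on the 40S head), which belong to the ribosome but not to the rule, had 2341 and 619 CPM in rods. Fau stood at 5228 CPM in microglia (1.16) and 1470 CPM in bipolar cells (-0.67), and Rack1 at 618 CPM in microglia (0.01). Fau was past 2-fold in microglia, and neither gene was in Müller glia or bipolar cells. Of the 7 elongation factor genes, 5 could be compared in Müller glia (0 higher and 1 lower by 2-fold), 7 in bipolar cells (1 and 2) and 3 in microglia (0 and 0). Eef1a1, which brings tRNAs to the ribosome, had 1561 CPM in rods and 2915 CPM in microglia (0.90). Of 27 initiation factor genes, 13 could be compared in Müller glia (0 higher, 6 lower), 21 in bipolar cells (2 and 3) and 3 in microglia (0 and 1); Eif1, which selects the start codon, had 2324 CPM in rods and 1436 CPM in microglia (-0.69), and Eif1b had 238 CPM in rods and 1264 CPM in bipolar cells (2.41). Among 7 other mRNAs known to carry the tract, Tpt1 was at 2835 CPM in rods, 2973 CPM in microglia (0.07) and 913 CPM in bipolar cells (-1.63), and Naca at 835 CPM in rods and 913 CPM in bipolar cells (0.13). In that list 6, 7 and 4 genes could be compared, with 0 higher and 1 lower in Müller glia, 1 and 2 in bipolar cells and 0 and 1 in microglia. Of the 23 genes of ribosome biogenesis only 2, 4 and 1 had enough UMIs, with 1 lower in Müller glia, 1 higher and 1 lower in bipolar cells and neither in microglia; Ncl, nucleolin, had 358 CPM in rods. The 78 mitochondrial ribosomal protein genes had 0.658% of the UMIs of rods, 0.382% of Müller glia, 0.611% of bipolar cells and 0.424% of microglia. Of these, 15 could be compared in Müller glia, of which 8 were lower and 0 higher by 2-fold, 42 in bipolar cells, of which 7 were lower and 3 higher, and 0 in microglia.

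The tags were compared in rods within the limits that the study states (200 to 2500 genes, at most 18% mitochondrial UMIs) and not called by Scrublet. This left 180 rods of tag 1, 128 of tag 2 and 20 of tag 3. The study reported more rods passing its quality filters, so its selection was not reproduced here. Ribosomal protein genes had 10.0% of the UMIs of tag 1 rods (interval 9.95 to 10.1), 9.32% of tag 2 rods (9.22 to 9.42) and 12.7% of tag 3 rods (12.4 to 12.98). Outside the mitochondrial genes the shares were 11.2%, 10.8% and 14.4%. Single rods ran from 0.916% to 17.8% (median 9.95%) in tag 1, from 2.56% to 18.1% (median 9.14%) in tag 2 and from 6.24% to 23.0% (median 11.4%) in tag 3, so the tags overlapped. In tag 3, 17 of 20 rods lay above the median of tag 1, and in tag 2, 48 of 128 did. Median depths were 2880, 2639 and 2574 UMIs, mitochondrial shares 10.5%, 14.0% and 11.5%, and rod marker shares 12.8%, 14.3% and 10.3%, in the order of the tags. Within rods of at most 9% mitochondrial UMIs the shares were 9.38% in 63 tag 1 rods, 9.70% in 7 tag 2 rods and 14.1% in 6 tag 3 rods, and between 9% and 18% they were 10.4% in 117, 9.31% in 121 and 12.3% in 14. What part the rod marker share had in this was not tested. Thinned to 500 UMIs, the median rod showed 29, 26 and 34.5 members, against 54, 48 and 53 unthinned.

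**Figure D5:**
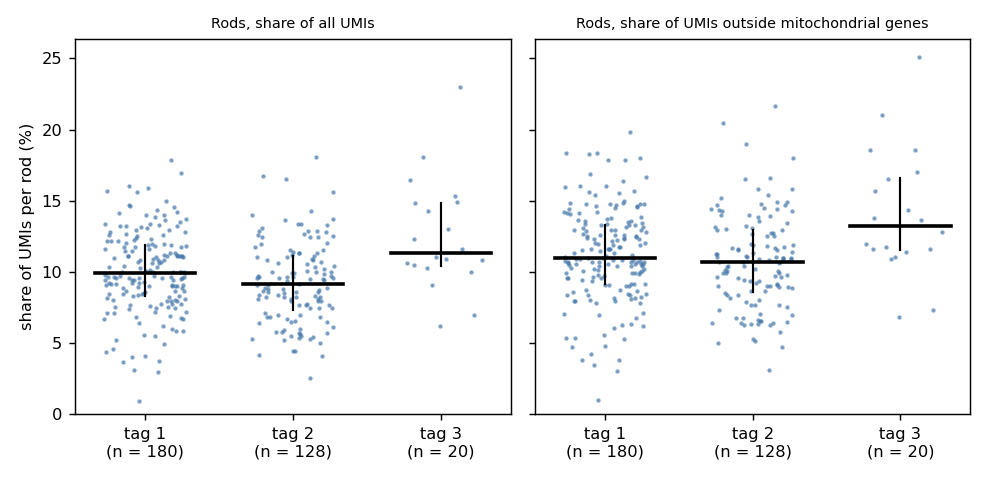
Share of UMIs on ribosomal protein genes in each rod (percent), of all UMIs and of UMIs outside the mitochondrial genes, by tag; points are rods, thick lines medians and thin lines quartiles. The 20 rods of tag 3 have a median of 11.4% of all UMIs, against 9.95% for tag 1 and 9.14% for tag 2, with overlapping ranges.

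Between tags 2 and 1 the log2 ratio of the shares was -0.11 (-0.13 to -0.09), and -0.049 outside the mitochondrial genes. Of 81 members, 27 were higher and 54 lower, with a median of -0.11 against -0.06 over all 2169 genes. At the line of 1.5-fold used between tags, 1 member (1.23%) was higher, where 13.1% of genes were, and 5 (6.17%) lower, where 20.7% were. The member past the line upward was Rpl7l1, with 27 UMIs in each tag (0.70, interval -0.13 to 1.52). For Rpl4 the levels were 406 CPM in tag 2 against 291 CPM in tag 1 (0.48), and for Rpl7 they were 1766 and 1453 CPM (0.28). The lowest were Rpl36al at 99.1 against 215 CPM (-1.10, -1.72 to -0.55), Rps27l at 66.1 against 108 CPM (-0.68) and Rps19bp1 at 72.1 against 117 CPM (-0.68). Under a stricter reading of the tag counts, with 22 and 47 rods, the log2 ratio of the shares was 0.10, and counted once per gene and barcode it was 0.083, so the direction differed between these settings.

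Between tags 3 and 1 the log2 ratio of the shares was 0.34 (0.30 to 0.38), or 1.27-fold, and between tags 3 and 2 it was 0.45 (0.41 to 0.48), or 1.36-fold. These comparisons share the 20 rods of tag 3. Of 66 members compared with tag 1, 51 were higher; 18 (27.3%) were higher by 1.5-fold or more, where 15.3% of the 385 genes were, and 2 (3.03%) lower, where 17.1% were. The 18 were 7 of 28 members of 40S and 11 of 33 of 60S. The median member was at 0.33 and the median gene at 0.08. Against tag 2, 56 of 67 members were higher, 23 (34.3%) by 1.5-fold or more, where 22.4% of the 371 genes were, and 3 (4.48%) were lower, where 17.8% were, with medians of 0.41 and 0.08. Rps14, a 40S protein lost in the 5q- syndrome, had 160 UMIs or 2926 CPM in tag 3, where tags 1 and 2 had 1365 and 1370 CPM. It was detected in 16 of 20 rods of tag 3, but 1 rod held 38 of its UMIs. With the tags in the order 3, 1 and 2, the levels of Rpl7 were 2834, 1453 and 1766 CPM and those of Rps2 750, 395 and 396 CPM. Rpl18 stood at 1554, 902 and 595 CPM in the same order (1.39 between tags 3 and 2, 1.00 to 1.76), and Rpl39 had 3164, 1835 and 1526 CPM. In the other direction, the levels of Rps4x were 732, 1286 and 1162 CPM and those of Rps9 585, 993 and 994 CPM, again in that order. Rpl12, at the base of the stalk, had 21 UMIs in tag 3 and 384 CPM against 557 CPM in tag 1 (-0.50, -1.25 to 0.10), and Rpl4 256 CPM in tag 3 against 406 CPM in tag 2 (-0.62). Rpl10 and Rps27l were at 0 UMIs in tag 3, which allowed up to 54.9 CPM. The rod with most member UMIs gave 14.1% of those of tag 3, and without it the share was 12.9%. Without the top barcode of each gene in each group the ratio to tag 1 was 0.20 and 11 of 63 members (17.5%) were higher by 1.5-fold, where 8.64% of 324 genes were, and counted once per gene and barcode the ratio was 0.22.

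The elongation factors Eef1a1 (1792, 1662 and 1739 CPM in tags 3, 1 and 2) and Eef2 (878, 367 and 318 CPM) were read beside the members. Of the elongation factor genes 6 could be compared between tags 2 and 1 (0 higher and 0 lower by 1.5-fold), 2 between tags 3 and 1 (1 and 0) and 3 between tags 3 and 2 (2 and 0). Of the initiation factor genes 19, 3 and 4 could be compared, with 3 higher and 0 lower, 0 and 2, and 1 and 2. The levels of Fau in tags 3, 1 and 2 were 3347, 2491 and 2517 CPM, and those of Rack1 878, 722 and 514 CPM. Ncl had 128, 421 and 411 CPM, from 7 UMIs in tag 3. Mitochondrial ribosomal protein genes had 0.772%, 0.779% and 0.686% of the UMIs of rods of tags 3, 1 and 2, and of 41 genes compared between tags 2 and 1, 7 were higher and 14 lower by 1.5-fold, while 1 could be compared between tags 3 and 1 (0 and 0) and 0 between tags 3 and 2. Of the other mRNAs with the tract 7, 4 and 4 could be compared, with 0 higher and 1 lower, 0 and 2, and 0 and 2. Of the ribosome biogenesis genes 4, 1 and 1 could be compared, with 0 higher and 0 lower, 0 and 1, and 0 and 1.

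Rods within the mitochondrial limit of 18% had 9.23% of their UMIs on ribosomal protein genes and rods above it 7.998%, but outside the mitochondrial genes the shares were 10.4% and 10.7%. By classes of mitochondrial share the value outside the mitochondrial genes was 7.34% in 60 rods of at most 6%, 10.3% in 120 rods up to 12%, 11.7% in 205 up to 18%, 10.8% in 141 up to 24% and 10.5% in 125 above 24%. The median rod of the lowest class was at 10.2%, above the pooled share of that class. A cluster of 15 rods with a median of 12461 UMIs had a share of 6.21% and 6.72% outside the mitochondrial genes, the lowest of the 7 rod clusters, whose shares otherwise lay between 7.69% and 9.99%. Without these 15 the log2 ratios to rods were 0.083 for Müller glia, -0.58 for bipolar cells and 0.56 for microglia. Across the 651 rods the share outside the mitochondrial genes and the share of rod markers were inversely related (Pearson r = -0.338, Spearman rho = -0.259), which is in part arithmetic, since both are shares of the same UMIs.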

How the data were processed

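The deposited expression matrix held raw UMI counts per gene and barcode, made by the authors with Cell Ranger (6.1.2 per the labels, mm10; the matrix header names another version); Scanpy 1.9.1 is also named. The deposited tag matrix held counts per tag, and a deposited table called each barcode as 1 of 3 tags, a doublet or negative. Here barcodes were clustered with scanpy 1.11.5 (Python 3.11.15, scipy 1.17.1; resolution 1) on genes other than the members, the translation lists and the mitochondrial genes. Clusters were named by markers. Removed were 22 barcodes called doublets by tag and, from the tag comparisons, barcodes among the 28 that Scrublet called; 189 barcodes were not in the tag table. The stated filter (200 to 2500 genes, at most 18% mitochondrial UMIs) passed 409 barcodes. UMIs were summed per group. With 1 library no p-value was computed; intervals are 95% exact (Clopper-Pearson for shares, conditional binomial for ratios), and a count of 0 was given a limit of 3 counts. The interval and ratio steps were tested on simulated counts. Genes were named by rule: the 10 members with most UMIs in rods, the 3 highest and 3 lowest members in each ratio, paralog pairs, stalk genes, Rpsa, members at 0, and the leading genes of each translation list. Some genes that the rule names are not reported here. Other genes named beside these were chosen after their values were seen. The members and lists were chosen with earlier results of these data known. Alternatives covered the total, 1 count per gene and barcode, the top barcode, the filter, doublets, the tag call, clustering and the least expected UMIs.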

Additional observations from a re-analysis of the deposited data

How the results depend on the processing

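The log2 ratios of the member share are given for Müller glia, bipolar cells and microglia over rods, and then for tags 2 over 1, 3 over 1 and 3 over 2. With UMIs outside the mitochondrial genes they were 1.06, -0.37 and 0.49, then -0.049 and, for tags 3 over 2, 0.41. With 1 count per gene and barcode they were 0.80, -0.90 and -0.057, then 0.083, 0.22 and 0.14. As a mean per barcode the classes gave 0.26, -0.45 and 0.79. Without the top barcode of each gene they were 0.063, -0.60 and 0.53, and 0.20 and 0.32 for tag 3 over tags 1 and 2. Among barcodes passing the filter only, the classes gave -0.32, -0.70 and 0.58. Without the filter the tags gave -0.046, 0.50 and 0.55, and with the strict tag call (at least 90% of at least 5 tag counts; 47, 22 and 3 rods) 0.10, 0.92 and 0.82. With Scrublet calls kept, tag 3 gave 0.25 and 0.36, and over every class tags 2 and 3 over tag 1 gave -0.16 and 0.28. Of the settings chosen after seeing the data, leaving out the 15 deep rods gave 0.083, -0.58 and 0.56, and comparing within a tag gave -0.15 for Müller glia (tag 1), -0.42 for bipolar cells (tag 2) and 0.59, 0.98 and 0.0285 for microglia (tags 1, 2 and 3). The median member at 50 or more expected UMIs was 0.17 in Müller glia and 0.65 in microglia. Clustering at resolution 0.5 and leaving out the 5 members with most UMIs kept all 6 ratios within the tolerance set.

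Counts of members past the fold, also added after seeing the data, changed as follows. The percent of all genes past the same fold in the same setting stands in brackets. In Müller glia 41 of 74 were higher (14.1%) and 0 lower (33.6%) outside the mitochondrial genes, 14 of 48 higher (23.8%) and 0 lower (15.4%) with 1 count per gene and barcode, 4 of 74 lower (66.7%) without the top barcode and 2 of 79 lower (59.5%) at 10 or more expected UMIs. In bipolar cells 22 of 75 were lower (37.9%) with 1 count. In microglia 1 of 68 was lower (59.7%) outside the mitochondrial genes, 1 of 67 lower (66.3%) without the top barcode, and with 1 count 0 of the 1 member compared was higher (0% of 27 genes). Between tags 2 and 1, 0 of 74 were higher (5.80%) and 3 lower (13.7%) at 50 or more expected UMIs, 0 of 77 higher (4.03%) and 1 lower (2.60%) with 1 count, and 0 of 80 higher (11.1%) without the top barcode. Between tags 3 and 1, 4 of 74 were lower (23.9%) at 10 or more expected UMIs and 11 of 63 higher (8.64%) without the top barcode. With 1 count no member could be compared in tag 3. Of 216 values of named members, 43 moved outside the mitochondrial genes, 12 without the top barcode and 128 with 1 count, where 6 turned: Rps15 in Müller glia (0.37), Rpl39 (-0.085), Rpl27a (-0.045), Rps29 (-0.16) and Rpl37 (-0.072) in microglia, and Rpl10a between tags 3 and 2 (-0.17). The values with 1 count were taken for every member compared by all UMIs, and the limit of 20 expected counts was not applied to them again. With 1 count only 1 member reached that limit in microglia and no member did in tag 3. At most 1 of the microglial turns therefore met it, and that of Rpl10a did not. The cause of the turns was not tested. No paired analysis was possible because there was 1 library and no test. Depth limits the tag 3 values, with 20 rods and 54684 UMIs, as it does those of the 18 microglia and 12 cones.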
